A study of Homo sapiens with 79 samples.

Results

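The neurofilament and axon growth genes described here are 10 genes chosen by symbol: NEFL, NEFM, NEFH, INA, STMN2, GAP43, DCX, TUBB3, MAPT and NSG2. All 10 were rows of the table, which holds 24414 genes. A young neuron extends its axon by adding microtubules behind a growth cone, and later fills the axon with neurofilaments, which set its calibre. In the retina, retinal ganglion cells (RGCs) send long axons to the brain and are rich in neurofilaments, whereas horizontal and amacrine cells have short processes and photoreceptors have short terminals. NEFL, NEFM and NEFH encode the light, medium and heavy neurofilament chains, and INA encodes internexin alpha, a filament protein that joins them. STMN2 (a stathmin of growth cones) and DCX (doublecortin) act on microtubules in immature neurons, GAP43 encodes a growth cone membrane protein, TUBB3 a neuronal beta-tubulin, MAPT the microtubule-associated protein tau, and NSG2 a vesicle protein of young neurons.

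Single cells came from retinal organoids, layered tissue grown from a human embryonic stem cell line (hESC H9, labelled as a CRX-GFP line), at day 60, day 90 and day 200 of differentiation. All groups shared the line and the medium, which held Y27632 for the first 2 days and foetal calf serum, T3, taurine and retinoic acid later. Day 90 was the first experiment, and per the study's methods its spike-in RNA was more concentrated and its limit on spike-in reads looser than at the other days, while day 60 had a lower minimum of reads per cell. These differences and that of time cannot be told apart. Full-length mRNA was sequenced on Fluidigm C1 chips, with 1 chip at day 60 (578 cells in 19 columns), 1 at day 90 (661 cells in 20 columns) and 2 at day 200 (D200a, 356 cells; D200b, 381 cells; 20 columns each). Cells and columns of a chip are not replicates, the 2 day 200 chips are the only repeat, and 1 line was used, so no test was made and intervals cover counting error only. The median depth ran from 160343 reads per cell at day 90 to 251929 on D200a, and column totals ran from 3414268 to 7999822 reads. Of 7 retinal identity genes all were read on every chip, with a summed level of 1295 to 1583 reads per 1000000 reads of the library (CPM) and PAX6 and SIX3 highest. CRX, the gene of the reporter, was read at 4.74 to 10.8 CPM.

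The promoters are shown first because STMN2, GAP43 and DCX had the highest CPM of the members at day 60 and were lower on every later chip. INA was not 2-fold lower on any. Per kb of exon, DCX stood below INA and NEFM at day 60. RefSeq entries (GRCh38.p14, 250 bases before to 50 after the start) matched 4 of the 10 genes, GAP43, INA, TUBB3 and DCX, with 7 entries. STMN2 had no match, so its promoter is not shown. Capitals mark matches, on either strand, to GGACAG (the right arm of the RE1 site of the neuronal repressor REST), CAGATG and CAGCTG (E boxes read by proneural factors) and TATAAA.
GAP43, chr3:115623260-115623559, plus strand: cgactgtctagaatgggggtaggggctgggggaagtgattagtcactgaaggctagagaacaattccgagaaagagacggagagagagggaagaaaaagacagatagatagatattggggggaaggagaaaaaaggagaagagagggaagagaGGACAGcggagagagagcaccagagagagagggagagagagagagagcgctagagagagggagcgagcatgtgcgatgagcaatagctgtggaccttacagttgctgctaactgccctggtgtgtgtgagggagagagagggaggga
INA, chr10:103276888-103277187, plus strand: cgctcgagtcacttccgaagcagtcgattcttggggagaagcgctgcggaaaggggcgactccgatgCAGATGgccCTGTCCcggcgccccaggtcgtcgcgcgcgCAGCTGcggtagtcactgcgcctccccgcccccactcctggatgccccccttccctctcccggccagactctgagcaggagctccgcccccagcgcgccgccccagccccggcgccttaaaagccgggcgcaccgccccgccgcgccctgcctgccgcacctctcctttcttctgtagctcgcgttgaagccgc
DCX, chrX:111412143-111412442, minus strand, first of 3 entries: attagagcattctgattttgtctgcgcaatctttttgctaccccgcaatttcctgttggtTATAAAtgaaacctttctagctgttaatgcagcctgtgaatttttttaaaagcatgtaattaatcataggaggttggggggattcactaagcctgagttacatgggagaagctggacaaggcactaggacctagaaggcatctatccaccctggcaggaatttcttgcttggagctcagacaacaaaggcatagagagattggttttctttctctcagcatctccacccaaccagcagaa
The GAP43 window held 1 GGACAG and no E box of the forms searched. The INA window held 1 GGACAG, read on the opposite strand, 1 CAGATG and 1 CAGCTG, and the DCX window shown held only TATAAA. The second DCX entry held 1 CAGATG and no TATAAA, and the third held neither. Neither CAGCACC (the left arm of RE1) nor ATTGAT (the core read by ONECUT factors) occurred in these 3 windows. Such matches are common: GGACAG was in 20.5% of 35116 promoters, CAGATG in 14.7%, CAGCTG in 17.9%, TATAAA in 11.5%, CAGCACC in 7.75% and ATTGAT in 6.26%. GC content was 71.3% for INA, 52.7% for GAP43 and 43% for DCX, beside a median of 58.7% over all promoters.

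TUBB3 and MAPT had almost no reads, so their counts say little about their levels of expression, and why they are low was not tested. TUBB3 was at 0.724 CPM at day 60, 1.75 CPM at day 90 and 0 on both day 200 chips, where 0 reads allow up to 0.031 CPM on D200a and 0.0336 CPM on D200b. A single cell held 93.4% of its day 60 reads, and none of the 158 neuron-like cells described later had a read of it. On GRCh38 in GENCODE 44, TUBB3 lies at chr16:89921392-89938761, and 66.5% of its coding bases are also exons, on the same strand, of a readthrough gene, ENSG00000198211, which is no row of the table. MAPT, at chr17:45894527-46028334, was at 3.06, 0.925, 0.0621 and 2.54 CPM on the 4 chips in order of day. Of its exon sequence in stretches of 75 bases, 96.1% also stands on alternate contigs of the hg38 reference, as does 99.7% of KANSL1, 100% of NSF and 100% of TUBB, which were read at no more than 3.85, 6.46 and 1.19 CPM. The share was 0% for the other 9 members. Reads that fall equally on several places or genes are left uncounted by the counter named, but whether alternate contigs were in the authors' reference is not given in the sources used here, and their part in the low counts was not tested.

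The other 8 members differed widely in level. Per kb of exon, the day 60 levels were 328 CPM for STMN2, 134 for GAP43, 55.3 for INA, 47.7 for NEFM, 45.3 for DCX, 38.6 for NEFL, 16.2 for NSG2 and 1.39 for NEFH. NEFH, the chain that enters neurofilaments last, was the least abundant of these.

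Of the neurofilament chains, NEFL and NEFM were high at day 60 and low afterwards. NEFL (ENSG00000277586, chr8:24950955-24956721) was at 152 CPM at day 60, with a 95% exact Poisson interval of 150 to 154. It was at 21.5 CPM at day 90, 19.6 on D200a and 57.9 on D200b. Day 60 was thus 7.07-fold above day 90, 7.75-fold above D200a and 2.63-fold above D200b. NEFM, the neighbouring gene (chr8:24913758-24919098), was at 173, 29.5, 25.2 and 73.1 CPM in the same order, which is 5.88-, 6.87- and 2.37-fold. For both genes day 90 and D200a differed by less than the 2 day 200 chips did from each other, whose changes had an SD of 1.07 for NEFL and 1.06 for NEFM on the log2 scale. NEFH (chr22:29480218-29491390) was at 5.26, 4.98, 2.401 and 5.68 CPM, with reads in 29, 18, 8 and 16 cells, and showed no order by day beyond that spread. INA (chr10:103277138-103290346) was within 1.70-fold of its day 60 level on every later chip, at 180, 125, 170 and 106 CPM. Exons of genes on the other strand, whose reads the counting may not separate, overlap 19.8% of the exon bases of NEFL, 26.4% of NEFM and 9.04% of NEFH, and those of NT5C2 overlap 13.9% of INA. Of these overlapping genes only NT5C2 is a row of the table.

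The growth cone and microtubule genes were highest at day 60 as well. STMN2 (chr8:79611117-79666158) was at 671 CPM at day 60 (666 to 676), 217 at day 90, 109 on D200a and 184 on D200b, so day 60 was 3.09-, 6.16- and 3.65-fold higher. GAP43 (chr3:115623510-115721490) was at 255, 85.5, 28.5 and 106 CPM, a difference of 2.98-, 8.95- and 2.404-fold. The D200b level of GAP43 lay above that of day 90, while D200a lay below it. DCX (chrX:111293779-111412429) was at 462, 232, 112 and 140 CPM, or 1.99-, 4.12- and 3.3004-fold lower than at day 60. It was the gene whose later levels on the 2 day 200 chips were closest among those that were 2-fold lower, with an SD of 0.23 on the log2 scale. NSG2 (chr5:174045706-174243501) differed least with time, at 62.2, 53.1, 50.6 and 44.9 CPM.

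**Figure D1:**
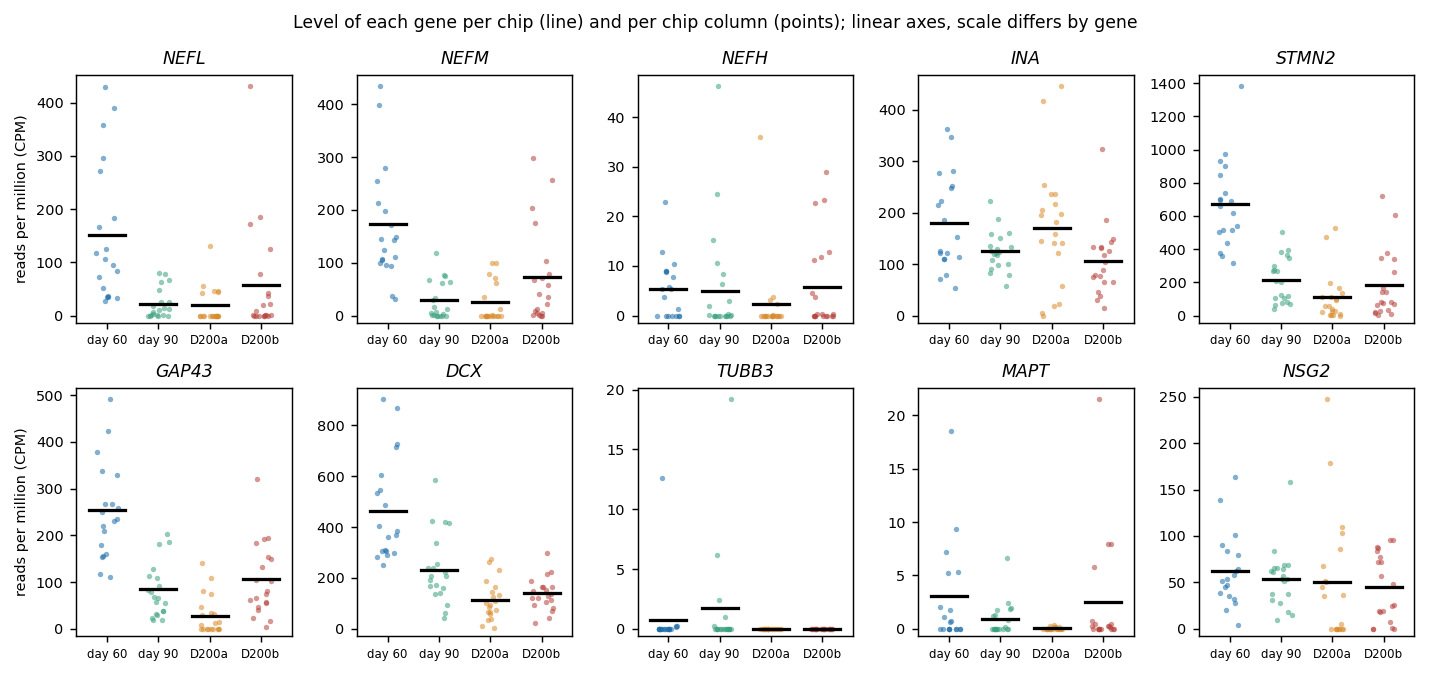
CPM (vertical, linear, scale differs by gene) of each of the 10 genes on the 4 chips (horizontal). Points are the chip columns, 19 at day 60 and 20 on each other chip, and black lines are the whole chips; STMN2, GAP43, DCX, NEFL and NEFM are highest at day 60, INA and NSG2 change little, and TUBB3 and MAPT lie near 0.

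With a change called where log2(CPM + 1) differed by 2-fold or more, 5 of the 10 genes were lower at day 90 than at day 60: NEFL, NEFM, STMN2, GAP43 and MAPT. Of 16689 genes with a mean of at least 1 CPM, 8.84% were lower by that rule, and 9 members, all but TUBB3, were among the genes tested. DCX lay just outside with a log2 change of -0.99, and MAPT just inside with -1.08. The MAPT call rests on 321 reads at day 60 and 107 at day 90, counts that, as described above, say little about its level of expression. None of the 10 was higher at day 90, beside 12.3% of all genes. On both day 200 chips, 5 genes were lower than at day 60, NEFL, NEFM, STMN2, GAP43 and DCX, beside 5.57% of all genes, and none was higher, beside 7.18%. The median log2 change of all 10 members, with the untested TUBB3 among them, was -1.03 at day 90 and -1.47 at day 200 (mean of the chips). Over all genes tested it was 0.01 and 0.02.

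The columns of the chips overlapped for every member. The lowest day 60 column of STMN2 stood at 315 CPM and was exceeded by 5 of 20 columns at day 90, 2 on D200a and 5 on D200b. For DCX the lowest day 60 column, 252 CPM, was exceeded by 6 columns at day 90, 2 on D200a and 1 on D200b. NEFL ran from 27.5 to 430 CPM over the day 60 columns with a median of 107, and its median on D200a was 0, since 14 of 20 columns had no read. The NEFL columns of D200b reached 431 CPM although their median was 5.27. At day 90 NEFL had no read in 4 columns. NEFM was more widespread on D200b, with no read in 2 of 20 columns and 11 above the lowest day 60 column of 31.8 CPM.

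Reads became concentrated in few cells with time. At day 60, 13 cells held 50% of the NEFL reads, whereas 4 did at day 90, 3 on D200a and 2 on D200b. For STMN2 these numbers were 51, 19, 5 and 5 cells, and for DCX 55, 25, 15 and 16. Detection was also highest at day 60. After each cell was thinned to 50000 reads, STMN2 had a read in 60.4% of the day 60 cells, 32.8% at day 90, 12.1% on D200a and 14.7% on D200b. NEFL was seen in 26.1%, 5.80%, 1.97% and 5.51% of the cells, lowest on D200a.

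Cells were grouped into 13 clusters from 2426 variable genes after removal of the 7 members among them, so that the members did not shape the classes. A neuron-like class of 158 cells met 9 of its 10 markers, which include GRIA2, SYT4 and ELAVL3 but also HOXB5, and was led by CAMKV, SKAP1 and DPP6. It held 95 of 578 cells at day 60 (16.4%, exact 95% interval 13.5 to 19.7%), 30 at day 90 (4.54%, 3.08 to 6.42%), 13 on D200a (3.65%) and 20 on D200b (5.25%). All 9 members that met the 1 CPM minimum were at least 2-fold higher in these cells than in all others over the 4 chips together, beside 10.7% of 16689 genes, and none was lower, beside 21.4%. NEFL was at 601 CPM against 19.6 in the other cells, a ratio of 30.7, the fifth largest log2 difference of all genes tested. By chip this ratio was 12.7 at day 60, 108 at day 90, 3.74 on D200a and 168 on D200b. NEFM was at 664 against 28.1 CPM, NSG2 at 416 against 24.04, STMN2 at 2073 against 159 and DCX at 1536 against 139. GAP43 was at 678 against 75.6 CPM, and the narrowest gaps were those of INA, 535 against 114, and NEFH, 11.3 against 4.06. NEFH was not higher in neuron-like cells on every chip: it was at 4.21 against 5.45 CPM at day 60 and at 0 against 2.503 on D200a, but at 29.2 against 3.80 at day 90 and 23.8 against 4.63 on D200b. Few cells lie behind these NEFH values, since a single cell held 27.1% of the chip's reads at day 90 and 22.7% on D200b. The other 8 stood higher in neuron-like cells on each chip, MAPT on D200a with only 6 reads in all. The cluster was drawn from genes related to these, so the comparison describes where the reads lie and is no test.

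**Figure D2:**
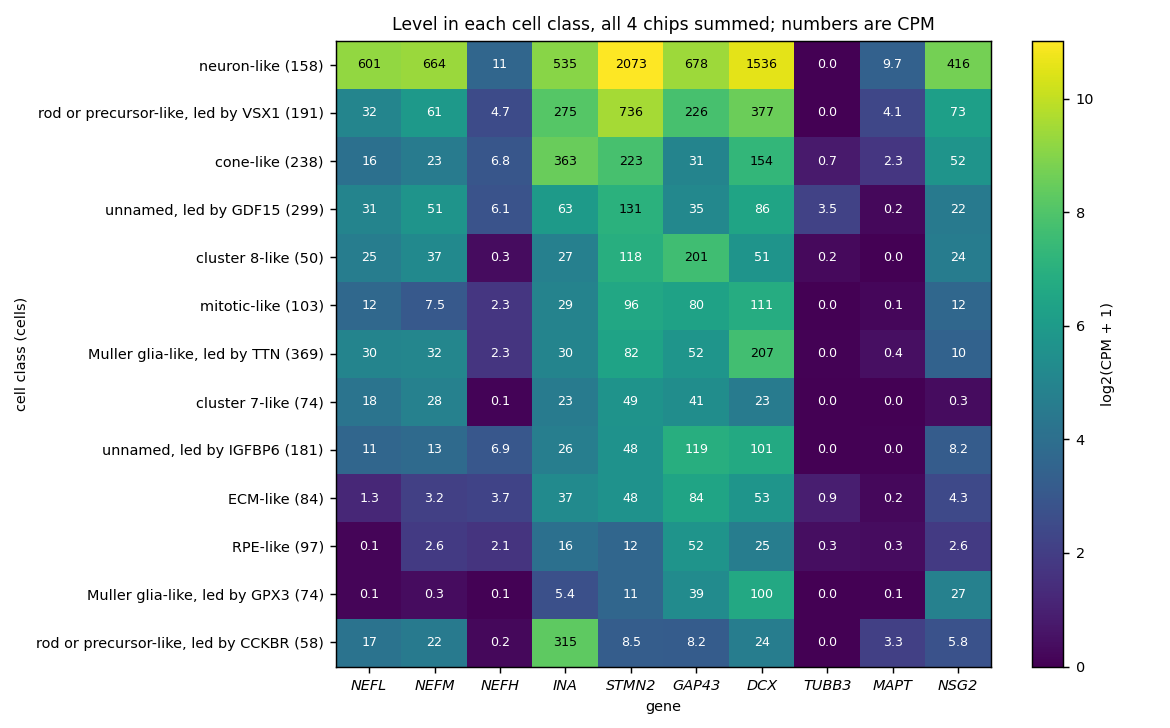
Level of each gene (columns) in each of the 13 cell classes (rows, with the number of cells), as CPM over all 4 chips; colour is log2(CPM + 1). Cluster 7-like and cluster 8-like follow the marker lists of the study's clusters of those numbers, led here by AOC2 and GFAP. The neuron-like class is brightest for 9 genes, all but TUBB3, and INA is also high in the cone-like and rod-like rows.

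INA stood apart from NEFL and NEFM by its level in the photoreceptor-like classes. In cone-like cells, which carry ARR3, PDE6H and GUCA1A, INA was at 243 CPM at day 60, 295 at day 90, 484 on D200a and 408 on D200b. In neuron-like cells it was at 561, 610, 461 and 428 CPM, so on the day 200 chips the levels of both classes were close. The rod-like class led by CCKBR and GNAT1, which had no cell at day 60, held INA at 231, 296 and 502 CPM on the later chips. NEFL in cone-like cells was only at 40.0, 6.66, 13.0 and 13.4 CPM, with a read in 7 of 46, 13 of 101, 1 of 63 and 3 of 28 cells. NEFM was similar in these cells, at 46.1, 2.25, 38.97 and 7.23 CPM. NEFH in cone-like cells was at 0.406 and 0.200 CPM at days 60 and 90 and at 11.3 and 23.2 CPM on the day 200 chips, with reads in at most 3 cells of a chip, so on D200b it was near the 23.8 CPM of neuron-like cells.

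The growth cone genes were high at day 60 in another class as well. The rod or precursor-like class led by VSX1, which met 6 of 10 rod or precursor markers and 2 of the neuron markers, had LHX4, NHLH1, NEUROD4 and CNTN2 among its leading genes. It held STMN2 at 2153 CPM at day 60, beside 1901 in neuron-like cells. STMN2 had a read in 48 of 51 precursor-like and 91 of 95 neuron-like cells. In later precursor-like cells STMN2 was at 420, 174 and 130 CPM, whereas neuron-like cells stayed at 2464, 1776 and 2441. GAP43 in the precursor-like class went from 638 CPM at day 60 to 187 at day 90, 12.1 on D200a and 41.6 on D200b. DCX in that class was at 728, 376, 133 and 246 CPM, and NEFM, at 191 CPM at day 60, was at 39.3, 0 and 6.10 CPM. These classes hold cells of different makeup at each day, so a lower level per cell and a change of cells within the class cannot be told apart.

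Within neuron-like cells, the members split. NSG2, at 653 beside 262 CPM, and NEFH, at 29.2 beside 4.21, were more than 2-fold higher at day 90 than at day 60. For NEFH this rests on very few cells. A single cell held 12.1% of the chip's NEFH reads at day 60 and 27.1% at day 90. All HOX-positive neuron-like cells, defined below, together held the same shares. STMN2 (2464 beside 1901 CPM), DCX (2165 beside 1621) and INA (610 beside 561) differed by less than 2-fold between these days. On the day 200 chips NSG2 was at 471 and 610 CPM and DCX at 811 and 1160, with only NSG2 on D200b 2-fold from day 60. NEFL was at 696 CPM at day 60, 391 at day 90, 65.9 on D200a and 951 on D200b. NEFM, at 810, 239, 221 and 1008 CPM, and GAP43, at 781, 543, 84.2 and 966 CPM, had the same order of the day 200 chips. On D200a only 1 of the 13 neuron-like cells had a NEFL read and 2 had a GAP43 read, beside 6 and 15 of 20 on D200b.

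**Figure D3:**
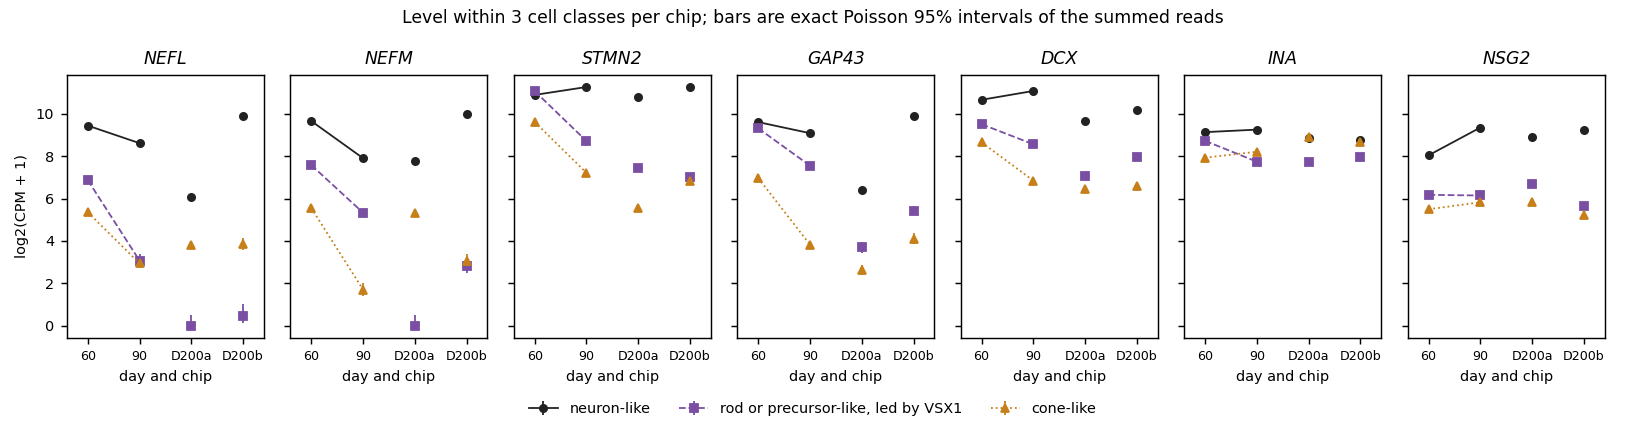
log2(CPM + 1) of 7 genes (panels) in 3 cell classes on each chip (horizontal: day 60, day 90, day 200 as D200a and D200b). Bars are exact Poisson 95% intervals and lines join days 60 and 90; STMN2 stays high in neuron-like cells and drops in the precursor-like and cone-like classes, and INA is as high in cone-like as in neuron-like cells at day 200.

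With neuron-like cells left out of every chip, STMN2 was at 451, 108, 37.9 and 51.6 CPM and NEFL at 54.7, 3.63, 17.6 and 5.65 CPM. NEFL, NEFM, STMN2, GAP43 and DCX were still 2-fold lower on both day 200 chips than at day 60, beside 943 of 16604 genes. This alternative was chosen after the data were seen. The other classes also differ in makeup by day, so a lower level per cell and a change of cells cannot be told apart here. Part of the day 60 signal was spread over classes that do not grow axons: STMN2 was at 147 CPM in mitotic-like cells, with a read in 41 of 65, and at 207 CPM in the Müller glia-like class led by TTN. At day 90 these values were 17.4 and 37.0 CPM, and RPE-like cells, which should lack these genes, had STMN2 at 13.3 CPM (14 of 78 cells) and NEFL at 0. The source of these reads was not tested, and scrublet called 25 doublets in 1976 cells, 22 of them on D200a.

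Neuron-like cells of day 60 carried HOX genes, which mark the hindbrain and spinal cord and are not expected in the retina, a forebrain tissue. A cell was called HOX-positive with reads of at least 3 of 28 HOX genes at 50000 reads. At day 60, 87 of 95 neuron-like cells were HOX-positive (91.6%, 84.1 to 96.3%), beside 10 of 30 at day 90, 1 of 13 on D200a and 10 of 20 on D200b. HOXB5 is a marker used to name the class, and HOX genes were not removed before clustering. A high share in the class may thus be partly built in, and it is given as a description. Over all cells, 259 of 578 were HOX-positive at day 60 and 50 of 655, 16 of 356 and 83 of 381 on the later chips. The 12 hindbrain or spinal genes summed to 2536 CPM in day 60 neuron-like cells, with HOXB5 (974 CPM) and HOXB3 (476 CPM) highest. The 7 RGC regulators and markers analysed summed to 251 CPM there, led by EBF1 (127 CPM) and ISL1 (36.9 CPM).

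The reads of the members lay largely in the HOX-positive cells at day 60. These cells held 43.5% of all day 60 reads but 78.8% of the NSG2 reads, 77.4% of NEFL, 76.8% of NEFM, 66.6% of DCX, 56.4% of INA, 55.3% of GAP43 and 50.5% of STMN2. On the later chips they held 7.79%, 4.54% and 21.9% of all reads. The median over the members was 67.9% at day 60, 22.1% at day 90, 1.43% on D200a and 51.5% on D200b, with 9 genes on the day 200 chips, where TUBB3 had no read. The median thus lay above the share of all reads at day 60, day 90 and on D200b and below it on D200a. On D200b, the 83 HOX-positive cells together held 90.2% of the NEFL reads and 82.0% of the NEFM reads. Few cells lay behind these shares: the top 5 cells of the chip held 88.8% of the NEFL and 70.3% of the NEFM reads. A single cell held 40.5% of the NEFL reads. Without HOX-positive cells, NEFL was at 60.97, 15.6, 20.5 and 7.24 CPM, so the excess of D200b over D200a in this gene was gone. NEFL, NEFM, STMN2, GAP43 and DCX remained 2-fold lower on both day 200 chips, beside 1037 of 16533 genes. The log2 changes were -1.53 and -2.91 for NEFL and -2.42 and -2.63 for STMN2. NSG2 without these cells was at 23.4, 43.4, 50.1 and 32.9 CPM. This alternative was also chosen after the data were seen.

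HOX-positive and other neuron-like cells of D200b differed most in the neurofilament chains. NEFL was at 1524 CPM in 10 HOX-positive cells and at 52.7 in the 10 others, and NEFM at 1637 and 20.9 CPM. The reads came from 5 and 6 of the HOX-positive cells and from 1 and 2 of the others. STMN2, at 3125 and 1367 CPM, and GAP43, at 1296 and 448, differed less, and NSG2 (558 and 692 CPM) and INA (455 and 385 CPM) little. At day 90 NEFM was likewise at 586 CPM in 10 HOX-positive and 92.9 in 20 other neuron-like cells, but STMN2 was at 1121 and 3029 CPM. At day 60 the 8 other neuron-like cells held NEFL at 805 beside 683 CPM, so the chains did not separate the groups there. Neuron-like cells of the later chips also carried some genes of horizontal and amacrine cells. ONECUT2, itself a marker used to name the class, was at 1567, 358 and 112 CPM on these chips, beside 200 CPM at day 60, so D200b lay below day 60. TFAP2A was at 437 CPM on D200a and 271 on D200b. Of the 7 horizontal genes, 2 were at 0 on each of these chips. At least 3 were seen in 7 of 30 cells at day 90, 1 of 13 on D200a and 1 of 20 on D200b, beside 2 of 95 at day 60. Of the 7 amacrine genes, 3 were at 0 on D200a and 1 on D200b. At least 3 of them were seen in 1 of 13 and 4 of 20 cells, beside 4 of 30 at day 90 and 2 of 95 at day 60. The part of these identities in the levels of the members was not tested.

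**Figure D4:**
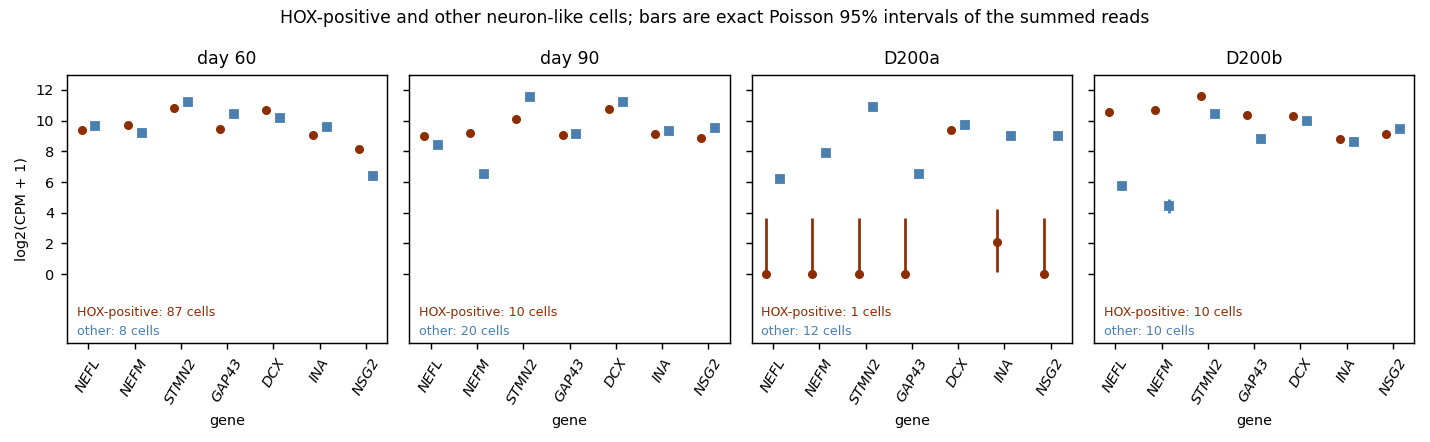
log2(CPM + 1) of 7 genes (horizontal) in HOX-positive (circles) and other (squares) neuron-like cells of each chip, with exact Poisson 95% intervals and the number of cells. NEFL and NEFM stand apart on D200b, at 1524 and 1637 CPM against 52.7 and 20.9 CPM; D200a has 1 HOX-positive cell.

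Cells with many members at once were most frequent at day 60. At 50000 reads, 149 of 578 day 60 cells had reads of at least 5 of the 10 genes (25.8%, 22.3 to 29.5%). This held for 50 of 655 cells at day 90 (7.63%, 5.72 to 9.94%), 1 of 356 on D200a (0.281%) and 16 of 381 on D200b (4.20%, 2.42 to 6.73%). Of neuron-like cells the shares were 81.1%, 80.0%, 7.69% and 60.0%, and of the precursor-like class led by VSX1 50.98% at day 60 and 16.7% at day 90. Of the 149 day 60 cells, 77 were neuron-like, 26 precursor-like and 98 HOX-positive. With all reads the shares over all cells were 33.6%, 9.98%, 0.562% and 4.99%.

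**Figure D5:**
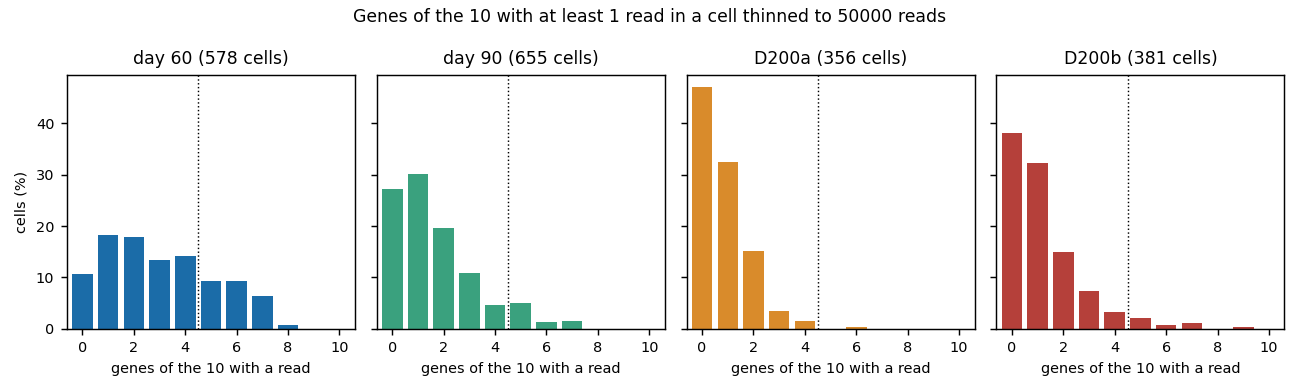
Share of cells (vertical, percent) by the number of the 10 genes with at least 1 read (horizontal) after thinning to 50000 reads, per chip. The dotted line separates cells with at least 5 genes, 25.8% at day 60 and 0.281% to 7.63% later.

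Across the 578 cells of day 60, the more abundant members varied together, STMN2 with INA (Pearson r = 0.58) and with DCX (r = 0.57), and NEFL with NEFM (r = 0.41). These correlations are across cells of 1 chip that share depth and capture, and are descriptions. Of 10242 other genes with reads in 10% of the cells, OLFM1, a secreted glycoprotein of neurons, had the highest mean correlation with the members (r = 0.33), followed among others by MAP2, RTN1, SCN3A, NSG1, DPYSL3, GRIA2, SEZ6L2 and CELF4 (r = 0.27 to 0.29). By gene, RTN1, OLFM1 and NSG1 were nearest to NEFL, RTN1, GRIA2 and OLFM1 to NEFM, and SEZ6L2, OLFM1 and SYT4 to STMN2. OLFM1, SEZ6L2 and MAP2 were nearest to INA, MAP2, RTN1 and OLFM1 to GAP43, MAP2, OLFM1 and DPYSL3 to DCX, and GRIA2, OLFM1 and NSG1 to NSG2. NEFH, TUBB3 and MAPT had no neighbour above r = 0.25 and are too sparse for a reading. The neighbours differed in their time course: OLFM1 was at 178, 104, 99.2 and 75.1 CPM, whereas MAP2, a dendritic microtubule protein, was at 476, 568, 849 and 549 CPM.

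Other genes of axons, 51 on a list, had a smaller median change than the members. TUBB, TUBB4A and ELAVL4 had a mean under 1 CPM, which left 48. By the same rule 12 of the 48 were lower at day 90, beside 8.84% of all genes, and 3 were higher, beside 12.3%. On both day 200 chips 10 were lower, beside 5.57% of all genes, and none higher, beside 7.18%, with a median log2 change of -0.43. Of 5 further intermediate filament genes none was lower on both chips. PRPH, the peripheral neurofilament protein, was at 35.3, 18.0, 9.90 and 19.4 CPM, while SYNM was at 19.9, 76.3, 31.9 and 44.6 CPM and VIM, of glia and progenitors, at 994, 1933, 1131 and 1464 CPM. Of 11 tubulin and microtubule genes only STMN1, a tubulin-binding stathmin of dividing cells and neurons, was lower on both, at 2064 CPM at day 60 and 887 and 733 CPM at day 200. STMN4 was at 123 CPM at day 60 and 66.96 and 59.9 CPM at day 200, and MAP1B at 2441 CPM and then 3634 and 2738 CPM, neither 2-fold different on both chips. TUBA1A, an alpha-tubulin of growing neurites, was at 2003, 670, 905 and 1253 CPM.

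Of 10 growth cone and vesicle genes, NSG1 and BASP1 were lower on both day 200 chips. NSG1, the paralogue of NSG2, was at 69.5 CPM at day 60 and 3.68 and 26.4 CPM at day 200, and BASP1, a membrane partner of GAP43, at 326 and then 154 and 148 CPM. GPM6A (351, then 553 and 443 CPM) and DPYSL3 (230, then 466 and 269 CPM) did not differ by 2-fold on both chips. Of 12 guidance and adhesion genes 3 were lower, with CNTN2, an axonal adhesion protein, at 52.5 CPM and then 9.37 and 14.9 CPM, and L1CAM at 40.2 and then 12.8 and 17.4 CPM. NCAM1 (469, then 696 and 634 CPM) and ROBO1 (34.0, then 38.6 and 69.8 CPM) were not. Of 10 neuronal RNA-binding and synaptic genes 4 were lower, with ELAVL3 at 69.7 CPM and then 17.1 and 23.6 CPM. ELAVL4, under the minimum, was at 1.83 CPM at day 60 and 0 on both day 200 chips. SNAP25 (73.1, then 107 and 119 CPM) and SYT1 (291, then 408 and 360 CPM), of synaptic vesicle release, differed by less than 2-fold.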

How the data were processed

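Per the labels and the study's methods, the authors trimmed reads with Trimmomatic 0.33, aligned them with STAR 2.4.0 to GRCh38.p7 with GENCODE 25, counted them with HTSeq 0.6 and filtered cells and genes. The deposited values are raw counts of reads per gene, with no molecular identifiers. Cell barcodes mark the rows of a chip: 40 were used, of which 38 recur on all 4 chips. The spike-in row was kept out of library sizes. Reads were summed per chip, class or column and given as CPM with exact Poisson intervals, and shares with exact binomial (Clopper-Pearson) ones. Differences are of log2(CPM + 1), called at 2-fold, over genes with a mean of at least 1 CPM. Clusters came from Seurat 5.3.0 (R 4.3.3; CCA, 20 dimensions, resolution 0.6) and were named by at least 3 markers of a list with a fold of 2 after an offset of 5 CPM. Doublets were called with scrublet in scanpy 1.11.5. Cells were thinned without replacement. TMM factors came from edgeR 4.0.16, and no model was fitted. The calling step was run on simulated Poisson chip sums with known changes. That simulation had no cells or differences between chips, so it does not cover reads concentrated in few cells. Python 3.11.15, numpy 2.4.6, scipy 1.17.1 and pandas 2.3.3 were used. Positions are from GENCODE 44 on GRCh38, which differs from the authors' annotation. Promoters are from RefSeq. The members and lists were chosen with earlier results of these data known. All 10 members are named. Of the axon list, the 2 genes per group that were lower and the 2 that were higher by most at day 200 on the chip with the smaller change are named, others after their values were seen. Neighbours are the 10 genes with the highest mean correlation to the members and the 3 nearest to each; 1 of them is not reported here. Schwann or oligodendrocyte genes, checked as another source of axonal reads, summed to 70.1 to 127 CPM per chip and to 0 to 53.2 CPM in neuron-like cells. Of the RGC list, 1 gene was not analysed here.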

Additional observations from a re-analysis of the deposited data

Results flagged for a closer look

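NEFH moved in opposite directions in different cell classes between day 60 and both day 200 chips. In cone-like cells it was higher by 3.12 on D200a and 4.10 on D200b on the log2(CPM + 1) scale, from 0.406 CPM to 11.3 and 23.2 CPM. In the Müller glia-like class led by TTN the log2 differences were -2.81 and -1.71, from 6.02 CPM to 0 and 1.14 CPM. In the unnamed class led by IGFBP6 they were -4.10 and -2.68, from 16.1 CPM to 0 and 1.67 CPM. The difference between the classes was not tested. Few cells lie behind it: NEFH had a read in 2 of 46, 3 of 63 and 3 of 28 cone-like cells, in 8 of 137, 0 of 45 and 1 of 70 cells of the TTN class and in 3 of 36, 0 of 15 and 2 of 83 cells of the IGFBP6 class.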

How the results depend on the processing

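No paired analysis was possible because the results come from no test. The counts of members lower at day 90 (5) and on both day 200 chips (5) stayed within 4 to 6 under all alternatives, which were TMM or median-of-ratios factors, spike-in reads in the library size, the mean of the cells' CPM, a filter of 150000 reads and 10% mitochondrial reads, removal of doublets, a pseudocount of 10 and, added after the data were seen, leaving out HOX-positive or neuron-like cells or mitochondrial genes and MALAT1. NEFL, NEFM, STMN2 and GAP43 were in each of these counts, and DCX in each at day 200. Spike-in reads in the deposited counts made up 0% at day 60 and day 90, 0.0165% on D200a and 0.00394% on D200b. Adding them could therefore not move the counts, and it does not address the more concentrated spike-in of day 90. MAPT was lost at day 90 with the mean of the cells' CPM, a pseudocount of 10 and without HOX-positive or neuron-like cells, and DCX was gained there without mitochondrial genes and MALAT1. TUBB3, under the minimum of 1 CPM, was gained at day 200 under the filter on cells and without HOX-positive cells. With only D200a the day 200 count was 6, with only D200b 5. A pseudocount of 10 gave 7 rather than 10 axon list genes lower on both day 200 chips and no minimum of 1 CPM, an alternative added after the data were seen, gave 11. The pseudocount of 10 also gave 330 rather than 1476 of all genes lower at day 90 and 214 rather than 929 lower at day 200. Without a minimum of 1 CPM, 8.04% of all genes were lower at day 90 and 6.88% on both day 200 chips.

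The share of cells with at least 5 members kept day 60 highest and D200a lowest under every setting. At day 60 it was 33.6% with all reads, 40.0% for at least 4 members and 16.4% for at least 6. At day 90 it was 5.02% at 25000 reads, 9.98% with all reads, 12.2% and 2.75% for at least 4 and 6 members and 5.45% with at least 5 reads per gene. For at least 4 members it was 1.69% on D200a and 7.35% on D200b, and for at least 6 it was 2.10% on D200b. The median share of the members' day 60 reads in HOX-positive cells was 74.2% with at least 2 HOX genes, 56.1% with at least 5 and 59.6% at 25000 reads. The count of 9 members higher in neuron-like cells was the same under 10 or 30 dimensions, resolutions of 0.4 and 0.8 and with the members among the genes clustered. NEFH, TUBB3 and MAPT were each seen in under 4% of the thinned cells of any chip, too few for differences between chips to be read from their detection.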

Other observations

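DCX reads were not confined to the neuron-like class, and the source of those in other classes was not tested. In the Müller glia-like class led by TTN it was at 276 CPM at day 60, 239 at day 90, 177 on D200a and 99.8 on D200b, with reads in 95 of 137, 71 of 117, 17 of 45 and 35 of 70 cells. NEFL in these cells was at 59.9 and 5.71 CPM at days 60 and 90. The class led by GPX3, RLBP1 and WIF1, with 59 of its 74 cells on D200a, held DCX at 91.2 CPM there, in 16 of 59 cells, and STMN2 at 10.7 CPM.

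GAP43 was read in classes without neuronal leading genes. The unnamed class led by IGFBP6 and ABCB1 held it at 188, 88.2, 105 and 112 CPM on the 4 chips, with reads in 22 of 36, 21 of 47, 5 of 15 and 33 of 83 cells, while NEFL in these cells was at 50.1, 3.65, 0 and 4.43 CPM. In the class led by GFAP and TTC6 GAP43 was at 771 CPM at day 90, but only 7 cells of that class were captured then, 4 of them with a read.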
